A study of Homo sapiens with 15 samples.

Results

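The EGR, FOS and JUN immediate early genes are described here in 15 A549 tumours grown under the skin of nude mice. They are 10 human genes taken by symbol from a table of 60649 human genes: EGR1, EGR2, EGR3, NAB2, FOS, FOSB, FOSL1, JUN, JUNB and IER2. All 10 were matched, and 9 had enough counts to be among the 15435 human genes tested. EGR2 did not. Immediate early genes are transcribed within minutes of a stimulus such as a growth factor, a hormone or a mechanical or chemical stress, with no need for new protein. The EGR proteins are zinc finger transcription factors that bind GC-rich DNA, and NAB2 is a co-repressor that binds them. FOS and JUN proteins pair through leucine zippers into the transcription factor AP-1, which in tumour cells acts on growth, invasion and inflammatory genes.

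A549 is an established human lung adenocarcinoma line, and its cells were transplanted under the skin. The hosts were BALB/c nude mice, a strain with no mature T cells. Mice of the stress group (n = 5) had restraint ahead of the transplant, for which the labels give 7 days. For those of the post-stress group (n = 5) it came after the transplant, with 12 days in the labels. The no-stress group (n = 5) had the same transplant and no restraint. The labels do not say whether these days are durations or starting points, nor how long after the last restraint the tumours were taken. All tumours come from 1 cell line, and whether the animals were separate cages or batches is not given, so that p-values measure the spread between these tumours. The question is whether tumour cells of restrained hosts held other levels of these genes.

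Each library held 16729091 to 19680449 counts, of which 12877165 to 15892705 fell on human genes. The mouse share was 18.6% to 24.6% in stress tumours, 12.4% to 23.0% in post-stress tumours and 15.6% to 30.2% in no-stress tumours. Levels are given in CPM, the depth-scaled count, taken within the human counts and adjusted by the trimmed mean of M-values (TMM). Of 10 markers of A549 and airway tumour cells, 9 were above 1 CPM in every tumour, among them the keratin KRT8 and the aldo-keto reductase AKR1B10, and KRT19 stayed between 0.0716 and 0.892 CPM. On human rows, 8 leukocyte markers summed to 3.21 to 6.42 CPM in stress, 2.94 to 8.47 CPM in post-stress and 3.79 to 8.29 CPM in no-stress tumours, and the B cell gene MS4A1 was at 0 throughout. The 6 fibroblast markers summed to 105 to 167 CPM in stress, 62.3 to 217 CPM in post-stress and 97.3 to 193 CPM in no-stress tumours. The 4 endothelial markers summed to at most 24.7 CPM, the 3 haemoglobin genes to at most 3.97 CPM and the 5 muscle and fat genes to at most 4.71 CPM in any tumour. The ranges of these sums overlapped between the 3 groups for each list. Single markers moved within them. Of 10 tested markers of these other cell types, 1 rose with stress, the fat cell gene PLIN1 (3.89 CPM in stress and 1.91 CPM in no-stress tumours, edgeR adjusted p = 0.0216; 2.79 CPM in post-stress tumours, edgeR adjusted p = 0.341), and none passed with post-stress. The fibroblast gene DCN averaged 22.9 CPM in stress, 14.7 CPM in post-stress and 8.36 CPM in no-stress tumours and did not pass with stress (edgeR adjusted p = 0.143) or post-stress (edgeR adjusted p = 0.565), while COL1A1, which made up most of the fibroblast sum, averaged 106 CPM in stress, 100.5 CPM in post-stress and 120 CPM in no-stress tumours. The only human cells transplanted were A549. The human-row counts of these other markers may be A549 RNA or mouse reads counted on human genes, which were not told apart. Their part in the results that follow was not tested.

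The DNA around the RefSeq starts of these genes is shown first, because immediate early genes are read through a few well-known short elements, some of them close to the start. RefSeq promoters of build GRCh38.p14, from 250 bases before to 50 bases after the start, were given once for 7 of the 10 genes. Both strands were searched for 8 motifs: the CArG box bound by serum response factor, the cyclic AMP response element TGACGTCA and its core TGACGT, the AP-1 site TGACTCA, the JUN promoter element TGACATCA, the EGR sites GCGGGGGCG and GCGTGGGCG, and TATAAA. The full element TGACGTCA contains the core TGACGT. Capitals mark matches, and positions count from the RefSeq start as 1, with the base before it as -1. By the GENCODE 29 coordinates given below, the whole JUN window and most of the NAB2 window lie inside the gene. The 5 promoters printed belong to the genes whose stress tumours all lay above all no-stress tumours.
EGR1: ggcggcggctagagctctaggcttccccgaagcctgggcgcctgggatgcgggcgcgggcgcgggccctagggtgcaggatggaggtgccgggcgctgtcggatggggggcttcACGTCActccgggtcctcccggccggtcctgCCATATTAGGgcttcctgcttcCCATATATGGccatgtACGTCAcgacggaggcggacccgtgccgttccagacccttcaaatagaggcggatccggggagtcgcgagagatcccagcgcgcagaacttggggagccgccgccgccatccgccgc
NAB2: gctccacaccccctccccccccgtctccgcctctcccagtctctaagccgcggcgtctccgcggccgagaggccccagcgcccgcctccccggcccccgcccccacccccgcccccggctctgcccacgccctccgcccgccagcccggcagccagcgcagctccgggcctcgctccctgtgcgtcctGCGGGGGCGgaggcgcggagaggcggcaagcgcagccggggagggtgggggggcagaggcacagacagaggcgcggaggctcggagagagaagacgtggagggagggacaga
FOS: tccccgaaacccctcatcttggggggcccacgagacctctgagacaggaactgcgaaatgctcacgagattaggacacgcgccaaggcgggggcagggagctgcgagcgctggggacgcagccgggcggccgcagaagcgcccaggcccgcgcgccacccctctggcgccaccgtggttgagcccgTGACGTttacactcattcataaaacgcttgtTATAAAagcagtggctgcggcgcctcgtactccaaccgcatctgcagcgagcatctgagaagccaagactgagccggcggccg
JUN: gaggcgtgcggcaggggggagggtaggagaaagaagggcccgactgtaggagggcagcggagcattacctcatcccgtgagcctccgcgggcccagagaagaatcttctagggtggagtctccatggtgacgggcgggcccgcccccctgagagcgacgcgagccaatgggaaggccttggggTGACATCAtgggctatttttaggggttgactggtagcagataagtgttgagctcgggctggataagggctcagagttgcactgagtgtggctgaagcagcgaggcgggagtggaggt
JUNB: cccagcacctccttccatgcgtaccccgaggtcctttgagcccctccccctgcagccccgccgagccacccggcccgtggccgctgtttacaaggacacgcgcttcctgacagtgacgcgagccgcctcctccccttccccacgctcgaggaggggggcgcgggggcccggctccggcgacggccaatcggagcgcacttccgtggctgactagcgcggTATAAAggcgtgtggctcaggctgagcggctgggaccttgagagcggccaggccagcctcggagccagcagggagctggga
The promoter of EGR1 (chr5:138465229-138465528, plus strand) held 2 CArG boxes, CCATATTAGG at -105 to -96 and CCATATATGG at -83 to -74, and 2 copies of TGACGT read as ACGTCA at -136 to -131 and -67 to -62. A CArG box was found in 1.29% and TGACGT in 7.98% of 35116 promoters of this length. The window of NAB2 (chr12:57088864-57089163, plus strand) held the EGR site GCGGGGGCG at -62 to -54, a motif present in 5.07% of promoters. FOS (chr14:75278578-75278877, plus strand) had TGACGT at -64 to -59 and TATAAA at -33 to -28, and FOSB had the same pair at -60 to -55 and -30 to -25. JUN (chr1:58783998-58784297, minus strand) had TGACATCA at -67 to -60, present in 2.61% of promoters. JUNB (chr19:12791236-12791535, plus strand) had only TATAAA at -31 to -26, present in 11.5%, and IER2 had none of the 8 motifs in its window. TGACGTCA (1.85% of promoters), TGACTCA (4.95%) and GCGTGGGCG (0.795%) were found in none of the 7 windows. A match is a stretch of letters and was not tested as a bound site. Bases further than 250 before the start were not searched, so a motif not listed for a gene may lie there.

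In stress tumours 6 of the 9 tested genes rose against no-stress tumours and none fell (EGR1, NAB2, FOS, JUN, JUNB and IER2). The test was edgeR's quasi-likelihood F-test, and a gene passed with a p under 0.05 after Benjamini-Hochberg adjustment over all human genes. Of all tested human genes, 5.23% rose and 5.22% fell by the same rule. The median log2 fold change was 1.05 over the 9 genes and -0.01 over all tested genes. In post-stress tumours 3 of 9 rose and none fell (EGR1, NAB2 and FOS), where 0.596% of all tested genes rose and 0.246% fell, with a median of 0.87 against -0.01 over all genes. Of the 9 genes, 9 with stress and 7 with post-stress had an unadjusted p under 0.05 in edgeR. All tested genes had shares of 26.1% and 15.2%. The 2 comparisons share their no-stress tumours. The 10 genes were chosen with earlier results of these data known, so the shares set beside them are a description. As these are bulk libraries, more RNA per tumour cell and more cells that express the gene cannot be told apart.

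**Figure D1:**
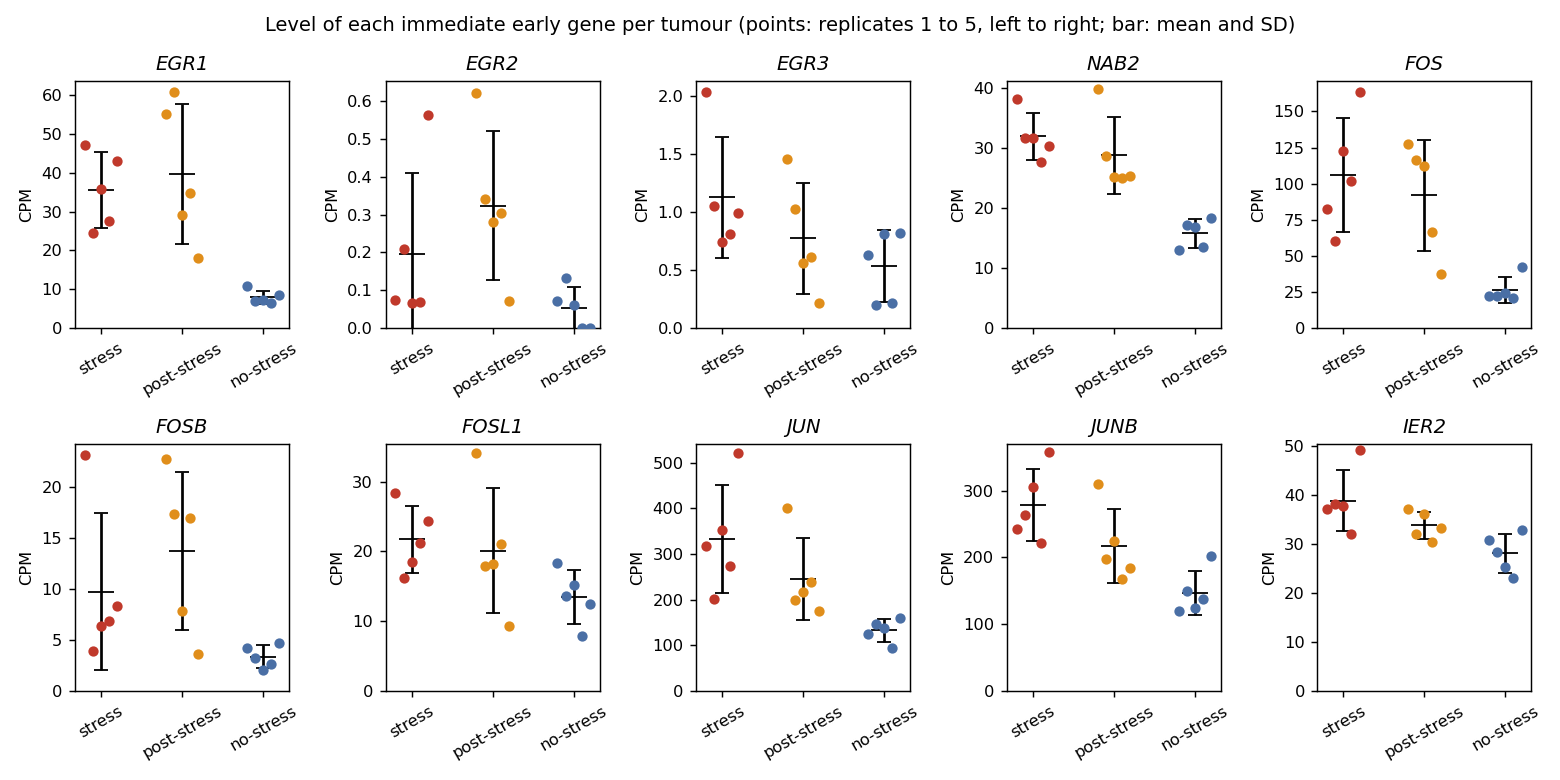
CPM (vertical axis, starting at 0) of the 10 genes in stress, post-stress and no-stress tumours; points are single tumours in replicate order, black marks the mean and SD (n = 5), and SD bars of EGR2 that would run below 0 end at the axis. EGR1 was at least 24.5 CPM in stress and 18.1 CPM in post-stress tumours, and at most 10.8 CPM in no-stress tumours.

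EGR1, the best known early growth response factor, lies on chromosome 5 (138465490 to 138469315, GENCODE 29, GRCh38). Its level was 47.1, 24.5, 35.9, 27.5 and 43.2 CPM in stress tumours, 55.3, 61.0, 29.04, 34.9 and 18.1 CPM in post-stress tumours, and 10.8, 6.98, 7.12, 6.52 and 8.40 CPM in no-stress tumours, each in replicate order. Every restrained tumour lay above every unrestrained tumour, and the restrained groups overlapped each other. The mean was 35.7 ± 9.72 CPM in stress, 39.7 ± 18.03 CPM in post-stress and 7.96 ± 1.71 CPM in no-stress tumours (SD, n = 5 each). EGR1 rose with stress by 2.16 on the log2 scale (SE 0.31, edgeR adjusted p = 0.00245), a 4.48-fold difference. With post-stress it rose by 2.32 (SE 0.31, edgeR adjusted p = 0.00658), 4.99-fold.

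The other EGR factors were scarce. EGR3, an EGR factor known from lymphocytes and neurons, had 2.03, 1.05, 0.741, 0.811 and 0.988 CPM in stress tumours, 1.45, 1.03, 0.561, 0.611 and 0.214 CPM in post-stress tumours and 0.632, 0.200, 0.805, 0.215 and 0.818 CPM in no-stress tumours. All 3 groups overlapped, and the difference did not pass for stress (log2 fold change 1.05, SE 0.48, edgeR adjusted p = 0.172) or post-stress (0.53, SE 0.50, edgeR adjusted p = 0.664). EGR2, known from Schwann cell myelination, was read with 1, 3, 1, 1 and 8 counts in stress tumours, 9, 5, 4, 4 and 1 in post-stress tumours, and 1, 2, 1, 0 and 0 in no-stress tumours. These sum to 14 counts in stress, 23 in post-stress and 4 in no-stress tumours, too few to test. A count of 0 allows up to 3 counts, or 0.223 CPM in no-stress replicate 5, a limit that covers counting error only. EGR1 supplied 96.8% ± 1.03 of EGR family RNA per exon length in stress, 97.7% ± 0.854 in post-stress and 93.1% ± 3.63 in no-stress tumours (SD, n = 5 each; EGR4 included).

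NAB2, the co-repressor that EGR factors are known to induce and that then restrains them, was the other EGR-linked gene that rose in both comparisons. It lies on chromosome 12 (57088894 to 57095476). Its level was 38.2, 31.7, 31.7, 27.7 and 30.3 CPM in stress tumours, 39.8, 28.6, 25.1, 24.96 and 25.3 CPM in post-stress tumours and 12.9, 17.2, 16.8, 13.5 and 18.4 CPM in no-stress tumours. Every tumour of either restrained group lay above every no-stress tumour. NAB2 rose by 1.02 on the log2 scale with stress (SE 0.14, edgeR adjusted p = 0.00103) and by 0.87 with post-stress (SE 0.14, edgeR adjusted p = 0.00886), 2.02-fold and 1.82-fold. Among the 9 tested genes it had the smallest adjusted p with stress. The ratio of EGR1 to NAB2 RNA per exon length was 0.744 to 1.37 in stress, 0.686 to 2.04 in post-stress and 0.389 to 0.798 in no-stress tumours. Both restrained groups overlapped the no-stress group there, through no-stress replicate 1 alone. NAB1, the related co-repressor, was at 133 CPM in stress and 106 CPM in no-stress tumours (log2 fold change 0.33, edgeR adjusted p = 0.0741) and is named here as the partner of NAB2. NAB2 shares 69 exon bases with STAT6 on the other strand, and whether counting used the strand is not given. STAT6 itself differed by 0.12 on the log2 scale with stress (edgeR adjusted p = 0.330).

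FOS, the founding member of its family, lies on chromosome 14 (75278774 to 75282230). It stood at 82.6, 60.1, 122, 101.5 and 164 CPM in stress tumours, 127, 116, 112, 66.3 and 37.1 CPM in post-stress tumours and 22.1, 21.95, 24.2, 20.6 and 42.3 CPM in no-stress tumours. No stress tumour overlapped the no-stress group, while post-stress replicate 5 lay below no-stress replicate 5. The mean was 106 ± 39.6 CPM in stress, 91.8 ± 38.5 CPM in post-stress and 26.2 ± 9.09 CPM in no-stress tumours (SD, n = 5 each). FOS rose by 2.02 on the log2 scale with stress (SE 0.36, edgeR adjusted p = 0.00625) and by 1.81 with post-stress (SE 0.36, edgeR adjusted p = 0.0389). The post-stress call of FOS failed in 9 of 15 leave-one-out fits, those without stress replicate 3 or 4, post-stress replicate 1, 2 or 3, or no-stress replicate 1, 2, 3 or 4 (edgeR adjusted p up to 0.129). It also ended with the mouse share as a covariate (edgeR adjusted p = 0.172).

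FOSB, a FOS relative known for its build-up after repeated stimulation in neurons, had the largest SD within groups on the log2 scale among the 9 tested genes. It had 23.2, 3.90, 6.33, 6.83 and 8.33 CPM in stress tumours, 22.8, 17.3, 7.86, 16.9 and 3.64 CPM in post-stress tumours and 4.21, 3.19, 2.04, 2.65 and 4.69 CPM in no-stress tumours. In each restrained group 4 of 5 tumours lay above all no-stress tumours and 1 did not. The differences were 1.53 with stress (SE 0.54, edgeR adjusted p = 0.0871) and 2.03 with post-stress (SE 0.54, edgeR adjusted p = 0.101) on the log2 scale and did not pass. Without stress replicate 1 the stress difference was 0.92. The post-stress difference passed without stress replicate 1 (2.04, edgeR adjusted p = 0.0460) and, at the threshold, without post-stress replicate 5 (2.28, edgeR adjusted p = 0.05 after rounding).

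FOSL1, which encodes FRA-1 and is known as a later and longer-lasting subunit in carcinoma cells, had 28.4, 16.1, 18.4, 21.2 and 24.3 CPM in stress tumours, 34.1, 17.9, 18.2, 21.0 and 9.34 CPM in post-stress tumours and 18.3, 13.6, 15.1, 7.88 and 12.4 CPM in no-stress tumours. All groups overlapped, with log2 fold changes of 0.69 for stress (SE 0.29, edgeR adjusted p = 0.143) and 0.58 for post-stress (SE 0.29, edgeR adjusted p = 0.361).

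JUN, the partner of FOS in AP-1, lies on chromosome 1 (58780788 to 58784327). Its level was 318, 201, 352, 273 and 521 CPM in stress tumours, 401.5, 198, 217, 239 and 174 CPM in post-stress tumours and 124, 147.5, 137, 93.05 and 159 CPM in no-stress tumours. Neither restrained group overlapped the no-stress group. JUN rose by 1.33 on the log2 scale with stress (SE 0.26, edgeR adjusted p = 0.00864). The post-stress difference of 0.90 (SE 0.26, edgeR adjusted p = 0.128) did not pass, although all 5 post-stress tumours were above every no-stress tumour. JUNB, a JUN relative with weaker activating power, lies on chromosome 19 (12791496 to 12793315). It stood at 243, 264, 306, 222.2 and 358.5 CPM in stress tumours, 310, 198, 224, 168 and 185 CPM in post-stress tumours and 120, 150, 125, 138 and 202 CPM in no-stress tumours. Stress tumours lay above all no-stress tumours and post-stress tumours overlapped them. JUNB rose by 0.93 with stress (SE 0.18, edgeR adjusted p = 0.00700), and the post-stress difference was 0.56 (SE 0.18, edgeR adjusted p = 0.154). JUNB shares 259 exon bases with HOOK2 on the other strand, which was at 30.5 CPM in stress and 25.8 CPM in no-stress tumours (edgeR adjusted p = 0.137).

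IER2, an immediate early nuclear protein outside these families, had the smallest change that passed. Its level was 37.1, 38.2, 37.8, 32.0 and 49.2 CPM in stress tumours, 37.2, 32.0, 36.1, 30.3 and 33.3 CPM in post-stress tumours and 30.8, 28.3, 25.3, 23.1 and 32.9 CPM in no-stress tumours. Stress replicate 4 lay within the no-stress range and the other 4 lay above it. IER2 rose 1.39-fold with stress (log2 fold change 0.47, SE 0.11, edgeR adjusted p = 0.0160) and differed 1.20-fold with post-stress (0.27, SE 0.11, edgeR adjusted p = 0.271). An antisense gene that shares 946 exon bases with IER2 had no counts in any tumour.

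**Figure D2:**
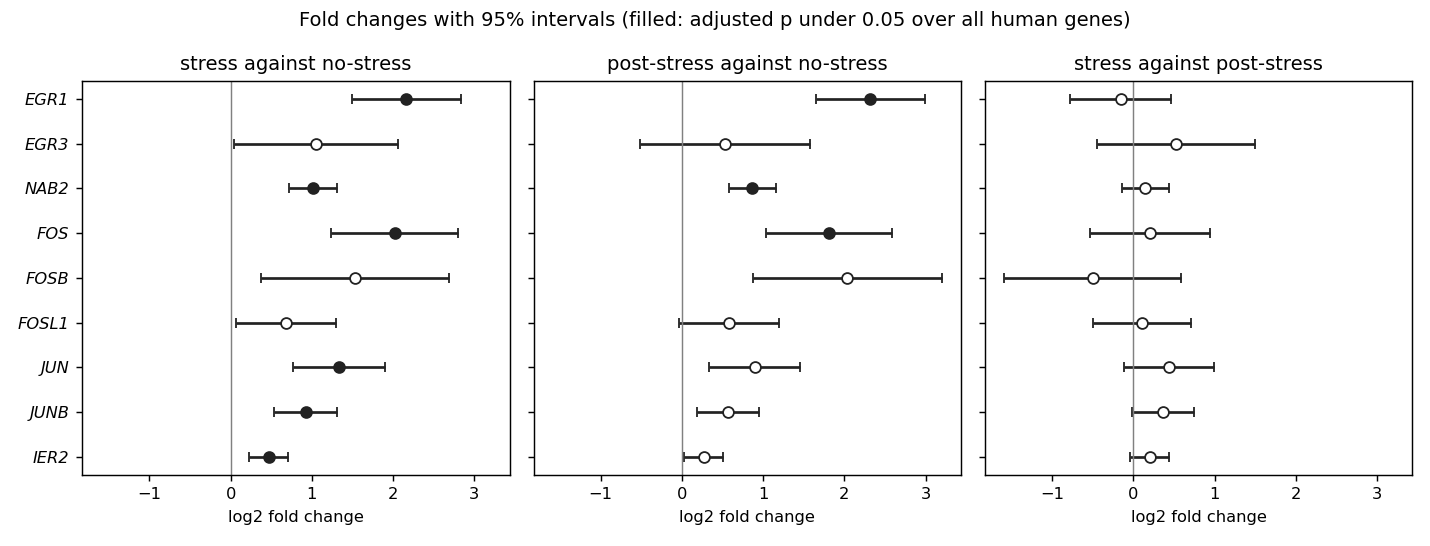
Log2 fold change (horizontal axis) of the 9 tested genes with 95% intervals in the 3 comparisons; filled points passed an adjusted p under 0.05 over all human genes. In all, 6 genes passed with stress, 3 with post-stress and none between the restrained groups.

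The groups did not overlap, with every stress tumour above every no-stress tumour, for 5 of the 9 tested genes (EGR1, NAB2, FOS, JUN and JUNB), against 4.09% of all tested genes. For post-stress these were 3 of 9 (EGR1, NAB2 and JUN), against 1.57% of all tested genes. Both counts are a description, because the genes were chosen with earlier results of these data known. The same 6 genes passed with stress in every fit that left out 1 library, without no-stress replicates 1 and 5 together, with the mouse share as a covariate and under each other setting tried, to which DESeq2 added FOSB. With post-stress, EGR1 and NAB2 passed in every one of these fits.

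Stress and post-stress tumours were then compared directly. None of the 9 genes passed in edgeR, none had an unadjusted p under 0.05, and DESeq2 and limma-voom also called none. Over all tested genes 0.0389% were called in edgeR and 11.1% had an unadjusted p under 0.05, so that about 1 of 9 genes would have one at that share. Stress over post-stress, EGR1 had a ratio of 0.898 (95% interval 0.584 to 1.38) and NAB2 of 1.11 (0.909 to 1.35). For FOS the ratio was 1.16 (0.691 to 1.93) and for FOSB 0.707 (0.333 to 1.5). JUN had a ratio of 1.35 (0.920 to 1.99), JUNB of 1.29 (0.986 to 1.67) and IER2 of 1.15 (0.975 to 1.36). EGR3 (0.732 to 2.81) and FOSL1 (0.709 to 1.64) had intervals that reach both sides of 1 as well. For 7 of the 9 genes the interval lay within a 2-fold difference either way, and for FOSB and EGR3 it reached further. The groups overlapped in all 9 genes, while 1.7% of all tested genes had groups that did not.

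**Figure D3:**
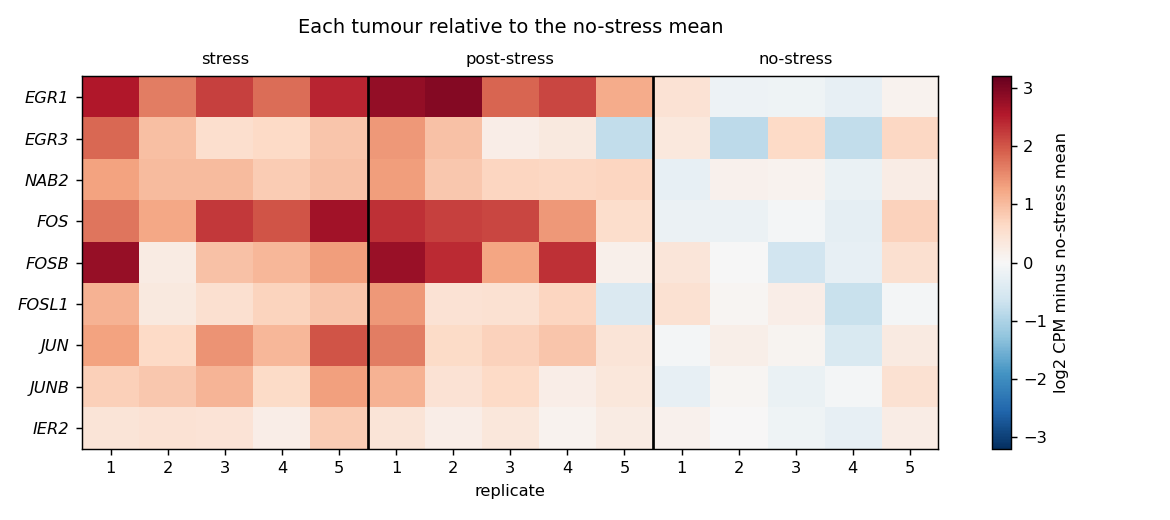
Log2 CPM of the 9 tested genes (rows) in each tumour (columns, by replicate number) minus the no-stress mean; red is higher, blue lower, on a linear colour scale. Post-stress replicate 1 was the highest of its group in 9 of 10 genes and post-stress replicate 5 the lowest in 7, ranks not counted over all tested genes.

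The restrained tumours were not uniform. The ranks that follow were counted for the 10 genes only, with no share over all tested genes. They are thus not shown to be particular to these genes. In stress replicate 5 all 10 genes were above every no-stress tumour, and in the other stress tumours 7 to 9 were. Post-stress replicate 1 also had all 10 above, post-stress replicates 2, 3 and 4 had 7, 8 and 7, and post-stress replicate 5 had 4. Within the stress group, replicate 1 was highest for EGR1, EGR3, NAB2, FOSB and FOSL1, and replicate 5 for EGR2, FOS, JUN, JUNB and IER2. Without restraint, replicate 5 was the highest in 7 of the 10 genes and the lowest in 1, with a mouse share of 29%. Replicate 1, with the higher mouse share of 30.2%, was the highest in 2 genes and the lowest in 2. Post-stress replicate 1, highest in 9 genes, had a mouse share of 12.4%, and post-stress replicate 5, lowest in 7, had 22.7%. The other way round, stress replicate 5, highest in 5 genes, had 24.6%, and stress replicate 2, lowest in 5, had 18.6%. The relation of these ranks to the mouse share was not tested.

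Tumours high in 1 gene tended to be high in others. Over all 36 pairs of the 9 tested genes, Pearson's r of the deviations from the group means across 15 tumours was above 0 in every pair, with a median of 0.525 and a range of 0.177 to 0.854, given as a description. All genes of a tumour share its library and scaling factor, and r was not computed for pairs of other genes. EGR1 varied most closely with FOSB (r = 0.854) and FOSL1 (r = 0.757), and JUNB with IER2 (r = 0.716). EGR1 and NAB2 had an r of 0.442. FOS was closest to JUN (r = 0.707), and FOSB was least like IER2 (r = 0.177). The SD within groups, on the log2 CPM scale, was 0.86 for FOSB, 0.71 for EGR3, 0.59 for FOS and 0.50 for EGR1, and 0.23 for NAB2 and 0.19 for IER2, beside a median of 0.23 over all tested genes. The spread of low genes includes more counting error, and EGR3 had a level above only 5.06% of tested genes. Set against the 500 genes closest in level, the SD was above 99.2% of them for FOS, 96.4% for FOSB and for JUN, 96.0% for EGR1, 94.6% for FOSL1 and 89.8% for JUNB, and above 81.4% for EGR3, 78.8% for NAB2 and 67.4% for IER2. Across tumours, deviations of the 9 genes had an r of -0.391 (NAB2) to 0.318 (IER2) with those of the log2 ratio of mouse to human counts.

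Over all 15 tumours, the non-member genes whose log2 CPM was most like that of EGR1, among 10843 genes of at least 5 CPM, were the metallothionein MT1X (r = 0.924), ANGPTL4 (0.913), MAFF (0.910), C12orf76 (0.905) and NDRG1 (0.904). Within groups their r was 0.758, 0.591, 0.798, 0.580 and 0.470. For FOS they were the vasodilator peptide gene ADM (r = 0.948), GADD45B (0.942), the phosphatase DUSP1 (0.941), DDIT4 (0.939) and VEGFA (0.931), with 0.855, 0.799, 0.804, 0.901 and 0.778 within groups. Spearman's rho over 15 tumours was 0.829 to 0.911 for the EGR1 list and 0.889 to 0.971 for the FOS list. These are the highest of many values and serve as a description. MT1X has near-identical copies, so that its count is uncertain.

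The make-up of AP-1 RNA is given per kilobase of exon, so that genes can be set side by side, and shares were described without a test. FOS made up 23.7% to 36.8% of FOS family RNA in stress tumours, 18.9% to 39.4% in post-stress tumours and 7.58% to 15.1% in no-stress tumours, so that neither restrained group overlapped the no-stress group. FOSL2, which encodes FRA-2 and was not among the 10 genes, was the main family member, with 57.5% ± 5.34 in stress, 58.9% ± 9.51 in post-stress and 78.4% ± 2.91 in no-stress tumours (SD, n = 5 each). Its own level was 61.0 ± 11 CPM per kilobase in stress, 56.6 ± 12.7 in post-stress and 57.6 ± 11.2 in no-stress tumours, and its log2 fold change was 0.08 with stress (edgeR adjusted p = 0.803) and -0.02 with post-stress (edgeR adjusted p = 0.964). In the JUN family, JUNB made up 52.6% ± 4.2 in stress, 50.9% ± 3.51 in post-stress and 52.0% ± 4.29 in no-stress tumours. JUN had 31.5% ± 5.19 in stress, 29.2% ± 4.01 in post-stress and 24.2% ± 3.02 in no-stress tumours. JUND had 15.8% ± 2.97 in stress, 19.9% ± 3.12 in post-stress and 23.8% ± 2.00 in no-stress tumours. JUND, which is known to be present in resting cells, differed by 0.31 on the log2 scale in stress (edgeR adjusted p = 0.123) and by 0.31 in post-stress (edgeR adjusted p = 0.249). Summed FOS family RNA was 107 ± 22.7 CPM per kilobase in stress, 98.1 ± 26.3 in post-stress and 73.4 ± 13.8 in no-stress tumours. Summed JUN family RNA was 293 ± 63.8 CPM per kilobase in stress, 234 ± 58.2 in post-stress and 155 ± 27.5 in no-stress tumours (SD, n = 5 each). FOSL2 and JUND are named as the remaining main family members, outside the naming rule.

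**Figure D4:**
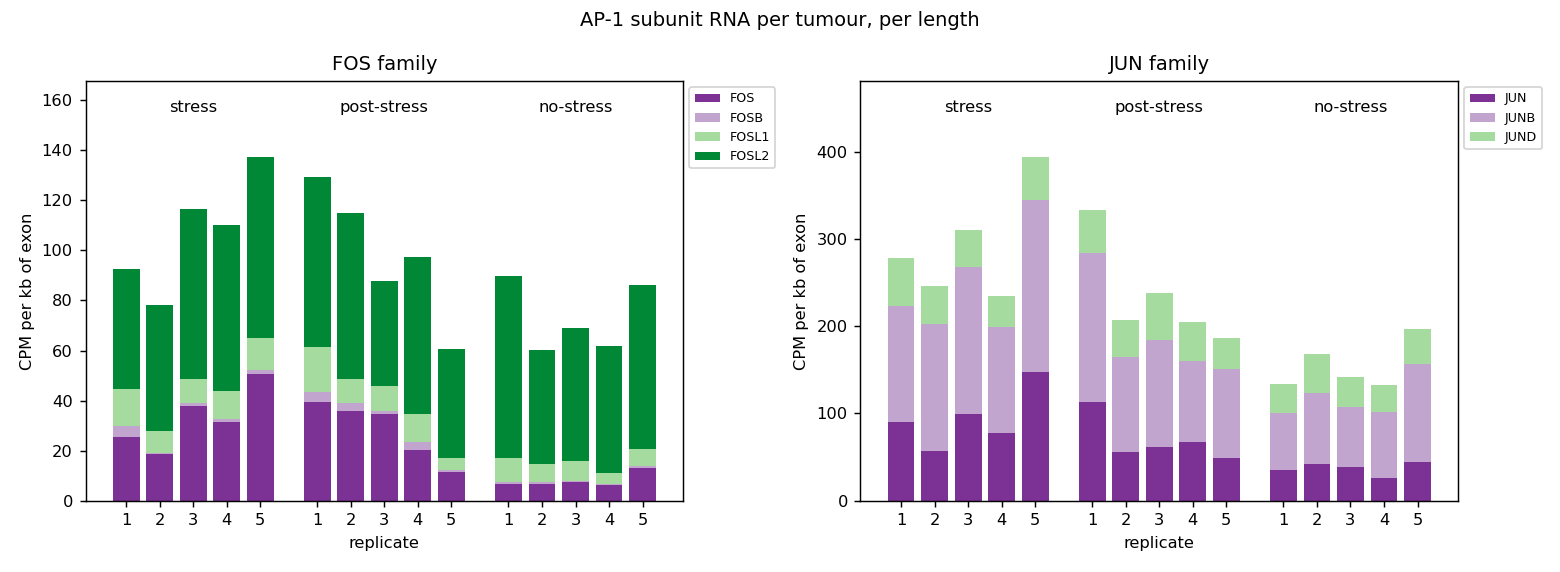
Stacked CPM per kilobase of exon (vertical axis, starting at 0) of FOS family and JUN family members in each tumour, grouped as stress, post-stress and no-stress. FOS took at least 18.9% of each restrained tumour's FOS family RNA and at most 15.1% of each unrestrained one's, and FOSL2 was the tallest part of the FOS family in all 15.

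Other immediate early genes were counted by list, and all lists were chosen with earlier results of these data known. By the edgeR rule 5.23% of all tested genes rose with stress and 0.596% with post-stress. Of 17 tested transcription factors outside the 10 genes, 11 rose with stress and none fell (median log2 fold change 0.90). DESeq2 called 13 of the 17 with stress, adding NR4A1 and ID1, and limma-voom 8, without ATF3, NR4A2 and NR4A3. Those with the smallest p were KLF10 (1.93-fold, edgeR adjusted p = 0.00117), KLF6 (2.37-fold, edgeR adjusted p = 0.00168), the helix-loop-helix repressor BHLHE40 (2.03-fold, edgeR adjusted p = 0.00306) and the small MAF protein MAFF (3.21-fold, edgeR adjusted p = 0.00499). With post-stress 1 of 17 rose, KLF10 (1.49-fold, edgeR adjusted p = 0.0468), with a median of 0.63. KLF10 failed in 10 of 15 leave-one-out fits (edgeR adjusted p up to 0.128). With post-stress, DESeq2 called 11 of the 17 and limma-voom 1. An unadjusted p under 0.05 in edgeR was found for 14 of 17 with stress and 12 of 17 with post-stress. All tested genes had shares of 26.1% and 15.2%. Of all genes with an adjusted p, DESeq2 called 7.38% as higher with stress and 2.57% with post-stress, and limma-voom 5.12% and 0.466%. Of 14 tested immediate early genes that are not transcription factors, 9 rose with stress and none fell (median 0.70), the same 9 with limma-voom and 11 with DESeq2. They included GADD45B, a growth arrest gene (2.46-fold, edgeR adjusted p = 0.00419), TIPARP, a mono-ADP-ribosyltransferase (1.61-fold, edgeR adjusted p = 0.00799), and the RNA-binding proteins ZFP36 (3.03-fold, edgeR adjusted p = 0.00945) and ZFP36L1 (1.49-fold, edgeR adjusted p = 0.0101), which speed the decay of AU-rich messages. With post-stress 1 of 14 rose, namely GADD45B (2.00-fold, edgeR adjusted p = 0.0491; median 0.49). It failed in 12 of 15 leave-one-out fits (edgeR adjusted p up to 0.141), and DESeq2 called 5 of the 14 and limma-voom none. In edgeR an unadjusted p under 0.05 held for 13 of 14 with stress and 9 of 14 with post-stress, against 26.1% and 15.2%. After removal of no-stress replicates 1 and 5, 6 of the 11 factors and 5 of the 9 other genes were still called with stress. Over all human genes the stress calls, in either direction, fell from 1613 to 546.

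Serum response factor, its partners, CREB1 and the kinases that act on these promoters formed the list of upstream genes. Of its 15 tested genes none passed with edgeR or limma-voom in either comparison (medians 0.02 with stress and 0.08 with post-stress), and DESeq2 called 2 with stress (ELK3 and CREB1) and none with post-stress. At an unadjusted p under 0.05 in edgeR there were 4 of 15 with stress, close to the 26.1% of all tested genes, and 1 of 15 with post-stress, a smaller share than the 15.2% of all tested genes. Serum response factor SRF stood at 43.7 ± 3.97 CPM in stress, 46.0 ± 6.20 CPM in post-stress and 46.7 ± 4.201 CPM in no-stress tumours (edgeR adjusted p = 0.568 and 0.938 for the restrained groups), and is named for the CArG box. The smallest p with stress belonged to ELK3 (1.26-fold, edgeR adjusted p = 0.0594) and CREB1 (1.16-fold, edgeR adjusted p = 0.0653). These kinases and factors are known to be controlled by phosphorylation, which RNA does not show.

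Partners and targets were mixed. For each list here, the edgeR shares of all tested genes that rose were 5.23% with stress and 0.596% with post-stress. Of 12 tested AP-1 partners and NAB1, 4 rose with stress and none with post-stress (medians 0.32 and 0.24). With stress 9 of 12 had an unadjusted p under 0.05 in edgeR, against the 26.1% of all tested genes. With post-stress 6 of 12 had an unadjusted p under 0.05 in edgeR, against the 15.2% of all tested genes, DESeq2 called ATF3, BATF3, MAFF and MAFK, and limma-voom called none. Without no-stress replicates 1 and 5, stress calls over all human genes fell from 1613 to 546. MAFF alone of the 4 called with stress was still called then. The 4 were MAFF, MAFK (2.03-fold, edgeR adjusted p = 0.0132), ATF3 (3.88-fold, edgeR adjusted p = 0.0332) and BATF2 (2.49-fold, edgeR adjusted p = 0.0444). MAFF and ATF3 also stand in the list of factors. ATF3 failed in 5 and BATF2 in 12 of 15 leave-one-out fits (edgeR adjusted p up to 0.0908 and 0.116). Of 10 genes known as EGR1 targets 2 rose with stress and none with post-stress (medians 0.61 and 0.30), namely the adhesion molecule ICAM1 (1.84-fold, edgeR adjusted p = 0.0298) and the cytokine TGFB1 (1.33-fold, edgeR adjusted p = 0.0392). ICAM1 failed in 5 and TGFB1 in 8 of 15 leave-one-out fits (edgeR adjusted p up to 0.0789 and 0.103). DESeq2 and limma-voom called none of these 10 with post-stress, and 2 of 10 had an unadjusted p under 0.05 in edgeR, near that 15.2%. With stress 6 of 10 had one, against 26.1% of all tested genes. Of 12 tested genes known as AP-1 targets 4 rose with stress and none with post-stress (medians 0.48 and 0.21). With post-stress 1 of 12 had an unadjusted p under 0.05 in edgeR, a smaller share than the 15.2% of all tested genes, DESeq2 called VEGFA and limma-voom called none. With stress 7 of 12 had an unadjusted p under 0.05 in edgeR, against 26.1%. Those that rose with stress were the angiogenic factor VEGFA (2.08-fold, edgeR adjusted p = 0.00355), the chemokine CXCL8 (3.12-fold, edgeR adjusted p = 0.00814), the urokinase receptor PLAUR (1.62-fold, edgeR adjusted p = 0.0140) and the adhesion receptor CD44 (1.29-fold, edgeR adjusted p = 0.0411). CD44 failed in 7 of 15 leave-one-out fits (edgeR adjusted p up to 0.104). With stress, DESeq2 added BATF3, PDGFB and TIMP1 to the calls of these 3 lists, and limma-voom added PDGFB and did not call ATF3. The collagenase MMP1, a textbook AP-1 target chosen here after its values were seen, stood at 14.99 CPM in stress and 6.85 CPM in no-stress tumours (edgeR adjusted p = 0.104).

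Of 8 tested heat shock genes 1 rose with stress and none with post-stress (medians -0.03 and -0.0032), beside 5.23% and 0.596% of all tested genes. With post-stress 1 of 8 had an unadjusted p under 0.05 in edgeR, again a smaller share than 15.2%, DESeq2 called HSPB1 and limma-voom called none. With stress 1 of 8 had an unadjusted p under 0.05 in edgeR, beside 26.1% of all tested genes. The gene that rose with stress was HSPB1, a small heat shock protein, at 481 CPM in stress and 312 CPM in no-stress tumours (1.54-fold, edgeR adjusted p = 0.0156), a call that ended without no-stress replicates 1 and 5 (edgeR adjusted p = 0.0858). The inducible genes HSPA1A and HSPA1B were too low to test.

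**Figure D5:**
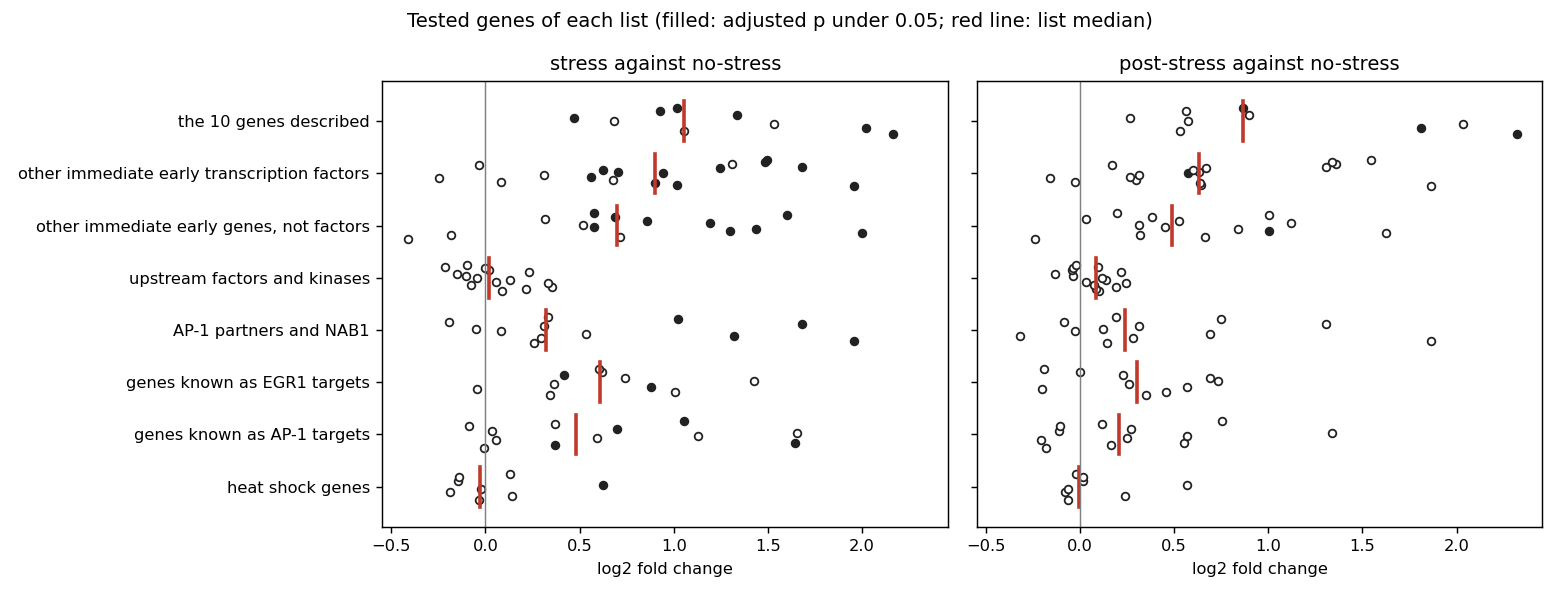
Log2 fold change (horizontal axis) of each tested gene by list, for stress against no-stress and post-stress against no-stress; filled points passed an adjusted p under 0.05 and the red line is the list median. Medians of the 9 tested EGR, FOS and JUN genes were 1.05 and 0.87, and those of the upstream factors and kinases 0.02 and 0.08.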

How the data were processed

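RNA from 15 tumours was extracted with TRIzol and made into libraries with a Fast RNA-seq kit from Abclonal, per the labels' protocols. The authors deposited raw counts per gene for 60649 human and 56941 mouse genes. The submitters' processing notes name Trimmomatic (0.39), HISAT2 (2.2.1), featureCounts (2.0.6), DESeq2, edgeR and the builds hg38 and mm10. The sources used here do not give the annotation release, the strand setting or how reads that match both species were handled, so some mouse reads may be counted on human genes. From these counts, human genes were filtered with filterByExpr (15435 kept, 99.8% of human counts), scaled with TMM and fitted over all 15 libraries with edgeR's quasi-likelihood test with robust dispersions. Versions were R 4.3.3 with edgeR 4.0.16 and with limma 3.58.1. The common biological coefficient of variation came to 0.187. A gene was called at a p under 0.05, adjusted by Benjamini-Hochberg over all tested genes of a comparison. The SE is the log2 fold change divided by the square root of F, and 95% intervals use the fit's degrees of freedom. Log2 CPM used a prior count of 2. Per-length levels divide CPM by merged exon length in GENCODE 29. The 10 genes and all lists were chosen with earlier results of these data known. Named were all 10 genes, up to 4 genes per list by smallest p, any called gene of a list with 5 or fewer, and the 5 genes most like EGR1 and FOS. Gene symbols came from the table of gene names (60507 of 60649 identifiers), and promoter sequences from RefSeq. The procedure was tried on simulated counts for stress against no-stress only. Genes were drawn independently there, so variation shared between genes was not covered. The alternatives tried were limma-voom, the Wald test of DESeq2 (1.42.0) and its size factors within edgeR, the mouse share as covariate, the replicate block, a fit of the compared groups alone, no filter or a filter at 1 CPM in 5 libraries, and fits without each library or without no-stress replicates 1 and 5. Leaving out libraries for the covariation of the genes was chosen after seeing the data.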

Additional observations from a re-analysis of the deposited data

Results flagged for a closer look

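In 6 of 30 groups of 5 values (10 genes in 3 groups) 1 tumour stood apart, with a gap to its nearest neighbour of more than 0.71 of the group's range. Chance gives this in about 1 in 20 groups where values are normally distributed, which was not checked for these CPM. Each of the 6 was the highest value of its group. The genes vary together, so that these are not separate events. EGR2 was 0.5645 CPM in stress replicate 5 and EGR3 2.033 CPM in stress replicate 1, both from few counts. FOSB was 23.19 CPM in stress replicate 1, where the next stress tumour had 8.33 CPM. NAB2 was 39.79 CPM and JUN 401.5 CPM in post-stress replicate 1. FOS was 42.31 CPM in no-stress replicate 5, where the next no-stress tumour had 24.2 CPM. Without that tumour FOS was 2.26 higher with stress and 2.06 higher with post-stress on the log2 scale. Without post-stress replicate 1 the post-stress change of NAB2 was 0.73 and still passed (edgeR adjusted p = 0.0127). No cause was tested.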

How the results depend on the processing

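Stress against no-stress called the same 6 of the 9 tested genes in all 15 fits without 1 library and in all 9 other settings, to which DESeq2's Wald test added FOSB. Post-stress against no-stress called 3, against 6 with the Wald test (adding FOSB, JUN and JUNB) and 2 to 4 without 1 library; EGR1 and NAB2 were called throughout, and FOS was lost with limma-voom (adjusted p = 0.0621), no filter (0.0594), only the groups compared (0.0720), the mouse share (0.172) and without no-stress replicates 1 and 5 (0.127). Over all human genes, 1613 were called with stress, 546 without no-stress replicates 1 and 5, and 661 to 1834 without 1 library. With post-stress 130 were called, 504 with the Wald test, 49 with only the groups compared, 38 with the mouse share, 32 without no-stress replicates 1 and 5, and 37 to 144 without 1 library. Stress against post-stress gave 6, then 203 with the Wald test, 36 with no filter, 1 with only the groups compared, 0 with the mouse share, and 0 to 189 without 1 library. The sign of that difference turned in 1 such fit for EGR1 (-0.34 to 0.048), 1 for FOS (-0.0072 to 0.35) and 2 for FOSL1 (-0.074 to 0.38). The median correlation among genes was 0.428 to 0.605 without 1 library. Same-numbered tumours had correlations of -0.301 to 0.191 and none was closest to its own number. This cannot show whether same-numbered tumours shared a cage or batch, which is not given. With the replicate block, 990 genes were called with stress, 57 with post-stress and 0 between the restrained groups, and FOS was lost with post-stress (adjusted p = 0.108). The cause was not tested. Few counts limit EGR2 and EGR3.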
